A study of Mus musculus with 6 samples.

Results

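The BCL2 family decides whether a dying cell's mitochondria are opened. Transcripts of 10 listed members were read in apoptotic osteoblasts of old and young mice: the survival genes Bcl2, Bcl2l1 and Mcl1, the pore-forming genes Bax and Bak1, and the BH3-only genes Bid, Bad, Bbc3, Pmaip1 and Bcl2l11. The members were found by their symbols, and all 10 had a row among the 29587 genes of the deposited table. There were 3 libraries from old mice and 3 from young mice, and the labels give neither the ages, the strain nor the sex of the animals and record the genotype as none in both groups. In both groups bone pieces were cultured for 3 days, adherent cells were taken through 3 passages and held in osteogenic medium for 3 days, and the resulting osteoblasts were then exposed to ultraviolet light for 0.5 hours, after which over 90% took up trypan blue, a dye that enters cells with leaky membranes. Every library thus comes from irradiated cells, and none from unirradiated osteoblasts is among the samples used here, so the values are levels after irradiation and not responses to it.

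Survival proteins of the family sit on the outer mitochondrial membrane and hold the pore formers in check. BH3-only proteins are the sensors of damage: they bind the survival proteins, and some also activate the pore formers directly. Once BAX and BAK assemble into pores, cytochrome c leaves the mitochondrion and caspases are activated. Much of this control lies in binding, cleavage and turnover of the proteins, which RNA does not show.

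Promoters of the members that the comparison turns on are shown first. RefSeq start sites on GRCm38.p6, the build that mm10 names, were used for 9 members, with Pmaip1 left out. Each window ran from 250 bases before to 50 bases after the start. The 4 windows below belong to Bid and Bbc3, the tested members with the largest fold changes, to Bcl2l11, which split the young libraries, and to Bax, the most abundant member. Capitals mark matches, on either strand, to a set of 5 motifs chosen after these promoters had been seen: the FOXO motif TGTTTAC, the E-box CACGTG, the interferon-stimulated response element, the gamma-activated site TTCNNNGAA and the p53 half-site.
Bid, chr6:120916775-120917074, minus strand: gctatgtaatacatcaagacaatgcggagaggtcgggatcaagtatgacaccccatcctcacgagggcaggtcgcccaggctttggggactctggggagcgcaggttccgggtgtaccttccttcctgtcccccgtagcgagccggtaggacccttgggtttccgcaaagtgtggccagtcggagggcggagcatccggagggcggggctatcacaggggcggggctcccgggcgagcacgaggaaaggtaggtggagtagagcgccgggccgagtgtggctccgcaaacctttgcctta
Bbc3, chr7:16310011-16310310, plus strand: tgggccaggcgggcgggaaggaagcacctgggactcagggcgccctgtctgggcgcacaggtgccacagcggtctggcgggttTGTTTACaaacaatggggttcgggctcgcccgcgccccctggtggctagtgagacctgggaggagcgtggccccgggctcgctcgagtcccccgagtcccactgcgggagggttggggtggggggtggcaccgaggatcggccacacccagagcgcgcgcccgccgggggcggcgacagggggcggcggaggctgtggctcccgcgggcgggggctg
Bcl2l11, chr2:128125788-128126087, plus strand: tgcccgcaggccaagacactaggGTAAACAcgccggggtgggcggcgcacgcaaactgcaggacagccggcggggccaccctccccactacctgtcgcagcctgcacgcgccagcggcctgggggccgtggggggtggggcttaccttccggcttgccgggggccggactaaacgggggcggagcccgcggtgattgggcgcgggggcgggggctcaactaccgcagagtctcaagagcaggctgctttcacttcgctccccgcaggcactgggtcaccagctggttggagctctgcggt
Bax, chr7:45466849-45467148, minus strand: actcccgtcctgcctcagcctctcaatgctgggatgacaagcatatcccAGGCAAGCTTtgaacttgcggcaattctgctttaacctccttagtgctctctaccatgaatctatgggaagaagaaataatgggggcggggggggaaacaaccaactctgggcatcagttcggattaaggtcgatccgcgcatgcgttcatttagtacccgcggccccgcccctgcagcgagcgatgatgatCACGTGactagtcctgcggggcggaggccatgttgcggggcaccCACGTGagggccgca
The FOXO motif stood in the Bbc3 window at -167 from the start and in the Bcl2l11 window, on the other strand, at -227. It was found in 3.65% of the 32851 promoter windows of the same length. The Bax window held the E-box at -9 and at 35, a motif of 7.15% of windows, and a p53 half-site at -201, which 8.36% of windows held. The Bid window held none of the 5. Bbc3 has 3 such windows and Bcl2l11 has 2, and of the Bbc3 windows not shown 1 held an E-box. For both genes the window shown is the one that held the FOXO motif, while the share of 3.65% is per window. Windows of the other 5 members held no match. The interferon-stimulated response element, in 3.44% of all windows, and the gamma-activated site, in 8.30%, were in no window of the 9 members. No site overlapped another. A match of letters is a description and not evidence of binding.

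The libraries held 64881180 to 84535939 recovered reads. Young replicate 1 stood apart: its correlation with young replicates 2 and 3 over 12015 genes was 0.949 and 0.962 by Pearson's r on log2(RPKM + 1), against 0.995 to 0.997 among old replicates and 0.996 between those 2 young ones; genes are not independent replicates. It read lower than young replicates 2 and 3 in long genes, with a median log2 difference of -0.48 for genes over 8000 bases, and higher, with one of 0.20, in genes of 1000 to 2000 bases. The 13 mitochondrially encoded genes summed to 15223 to 18176 RPKM in old libraries, against 10394 RPKM in young replicate 1 and 20730 and 22158 RPKM in young replicates 2 and 3. Of 11 osteoblast markers 8 passed the expression filter, while Alpl, Bglap and Phex stayed under 1 RPKM in all 6. Of the 8, limma called 1 higher, Spp1, at 732 ± 68.6 RPKM in old and 290 ± 75.9 RPKM in young (adjusted p = 0.0307), and 1 lower, Sp7, at 4.90 ± 0.0281 RPKM in old and 8.44 ± 0.567 RPKM in young (adjusted p = 0.0186; SD, n = 3 each). At an unadjusted p under 0.05 there were 5 of the 8; Dmp1 was 1.76 and Runx2 0.765 times its young mean in old libraries, both without overlap, while Col1a1 overlapped at 1492 to 1553 RPKM in old and 1062 to 1829 RPKM in young. Over all 12015 tested genes, 1.47% were called higher, 0.0999% lower, and 11.2% had an unadjusted p under 0.05 by limma. Without young replicate 1, 2 of the 8 markers were called higher and 5 lower, where 13.4% of 11919 genes were called higher and 19.5% lower. The part of these marker differences in the members' differences was not tested. Summed levels of lymphocyte, neutrophil, endothelial, adipocyte and erythroid markers were at most 0.160 RPKM in any library. Macrophage and monocyte markers summed to 9.20 to 10.5 RPKM in old libraries and 8.25 to 9.52 RPKM in young ones. Most of it was Lyz2, at 7.56 to 8.53 RPKM in old and 6.53 to 8.06 RPKM in young. Cd68, Csf1r and Cd14 were above 0 in all 6 libraries, at 0.540 to 1.04, 0.360 to 0.618 and 0.307 to 0.662 RPKM. Itgam was at most 0.0117 RPKM, and Adgre1 and Fcgr1 were at 0 in 5 of 6 libraries. In such bulk libraries, fewer cells of a type and less RNA per cell cannot be told apart.

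Bax was the most abundant member and Pmaip1 was practically not detected. By RPKM, reads scaled by gene length and library depth and therefore comparable between genes, the order over the 6 libraries ran Bax, Mcl1, Bad, Bak1, Bid, Bbc3, Bcl2l1, Bcl2, Bcl2l11 and Pmaip1. Bax spanned 79.6 to 100.5 RPKM and Mcl1 31.8 to 40.2 RPKM. Over old and young libraries together, the ranges of Mcl1 and Bad overlapped. So did those of Bid and Bbc3 and those of Bbc3 and Bcl2l1. The order of these neighbours is one of means. Within libraries, Mcl1 was above Bad in 5 of 6, Bid above Bbc3 in 6 and Bbc3 above Bcl2l1 in 4. Every other neighbouring pair had separate ranges. The pore formers made up 54.0, 57.5 and 55.3% of the summed RPKM of the family in old replicates 1, 2 and 3, against 55.7, 53.2 and 55.5% in young replicates 1, 2 and 3. Mcl1 supplied 87.5 to 88.4% of the survival RPKM in old libraries and 84.9 to 91.5% in young ones. The gene length behind RPKM joins the exons of all isoforms, so a level is understated where long untranslated exons are little used.

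**Figure D1:**
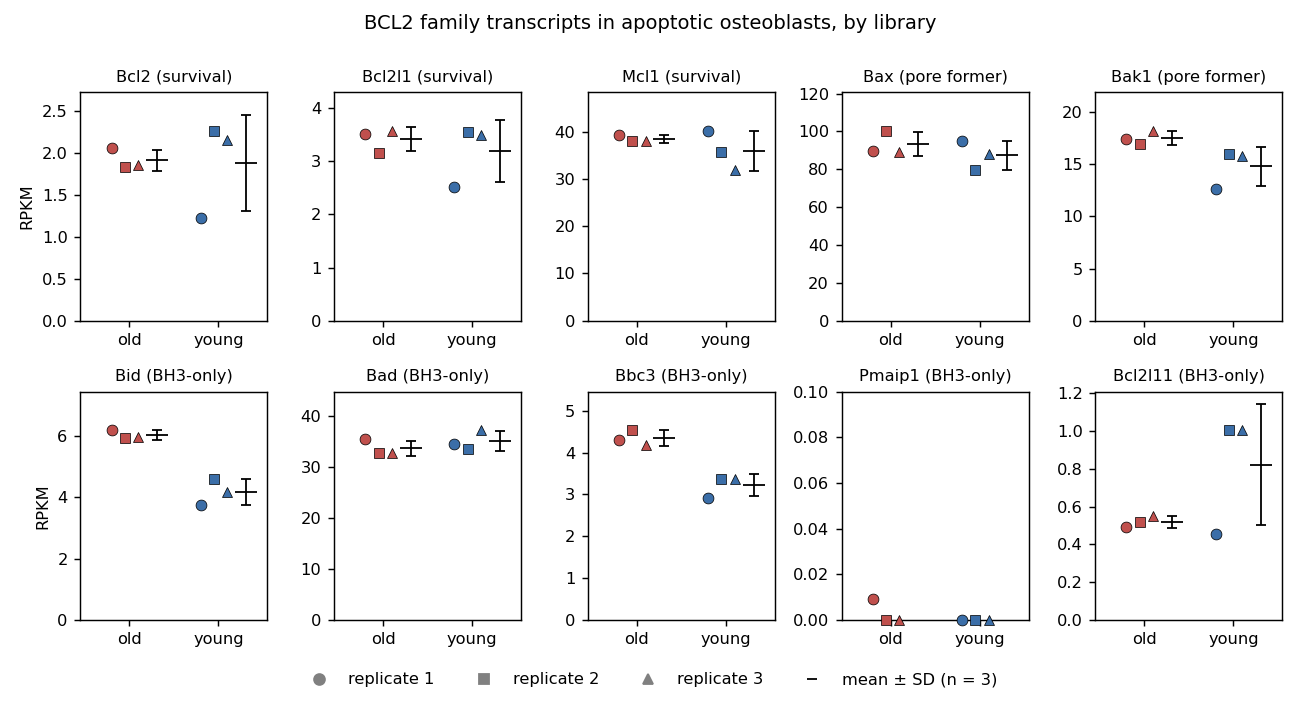
RPKM of each of the 10 members in each library, old left and young right, with a marker shape per replicate and bars for the mean and SD (n = 3 each, not drawn for Pmaip1). Bid, Bbc3 and Bak1 have old libraries all above young ones, and the circle of young replicate 1 lies apart in Bcl2, Bcl2l1 and Bcl2l11.

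No member differed between old and young past the threshold in the unweighted fit of all 6 libraries. Of the 10 members, 8 passed the filter of at least 1 RPKM in at least 3 libraries and entered the fit across all genes, and 0 of these 8 were called by limma at an adjusted p under 0.05, where 1.57% of the 12015 tested genes were. At an unadjusted p under 0.05 there were 2, Bid and Bbc3, against 11.2% of all tested genes. Groups did not overlap in 3 of the 8, all higher in old, against 10.6% of tested genes higher and 10.2% lower without overlap. The median log2 fold change was 0.10 over the 8 members and 0.01 over all tested genes. Without young replicate 1, 2 of the 8 were called by limma, both higher in old, where 32.9% of 11919 genes were called, 13.4% higher and 19.5% lower. With weights estimated for each library, limma called 4 members, Bid, Bbc3, Mcl1 and Bak1, where 42.2% of genes were called. The members called, 2 of 8 and 4 of 8, lie near these shares of all genes.

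The BH3-only gene Bid had the largest fold change of the 8 tested members. BID is cut by caspase-8 after death receptor signalling, and its fragment carries that signal to the mitochondria. Bid had 6.21, 5.93 and 5.97 RPKM in old replicates 1, 2 and 3, against 3.75, 4.61 and 4.17 RPKM in young replicates 1, 2 and 3. The lowest old library lay above the highest young library. Means were 6.03 ± 0.152 RPKM in old and 4.18 ± 0.433 RPKM in young (SD, n = 3 each), a ratio of 1.44. The log2 fold change was 0.45 ± 0.10 (SE), with a 95% interval of 0.21 to 0.68 that is not adjusted for the number of genes, and limma's adjusted p was 0.108. Without young replicate 1 the log2 fold change was 0.38 ± 0.06 (SE, limma adjusted p = 0.00722), so the call depended on that library. Bid lies on the minus strand of chromosome 6 (120891930 to 120916853, mm10) and shares 628 exon bases with Bcl2l13 on the other strand. Whether counting used strand is not given in the sources used here, so reads of the pair may be mixed. Bcl2l13 itself had 3.83, 3.41 and 3.43 RPKM in old replicates 1, 2 and 3, against 1.67, 4.30 and 3.90 RPKM in young replicates 1, 2 and 3.

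Bbc3, which encodes PUMA, was the next. PUMA is a potent BH3-only protein that p53 induces after DNA damage and that binds all the main survival proteins. Its RPKM was 4.29, 4.55 and 4.17 in old replicates 1, 2 and 3, against 2.92, 3.36 and 3.38 in young replicates 1, 2 and 3. Again all old libraries exceeded all young ones, with means of 4.34 ± 0.191 RPKM in old and 3.22 ± 0.261 RPKM in young (SD, n = 3 each), a ratio of 1.35. On the log2 scale the fold change was 0.34 ± 0.09 (SE, limma adjusted p = 0.193), with a 95% interval of 0.12 to 0.56. It was 0.29 ± 0.06 without young replicate 1 (SE, limma adjusted p = 0.0153). Bbc3 lies on chromosome 7 (16308393 to 16318205, plus strand, mm10), and no other gene of the table shares its exons.

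Bcl2l11, which encodes BIM, split the young libraries. BIM is a BH3-only protein that can activate the pore formers directly and also occupies every main survival protein. Old replicates 1, 2 and 3 had 0.489, 0.517 and 0.549 RPKM of Bcl2l11, against 0.453, 1.008 and 1.005 RPKM in young replicates 1, 2 and 3. Young replicate 1 was the lowest of the 6 libraries, while young replicates 2 and 3 lay above all old ones. The recovered reads were 332, 313 and 356 in old libraries, against 236, 628 and 669 in young ones, so these levels are far above the 3 reads taken as a floor. Bcl2l11 did not reach 1 RPKM in 3 libraries and stayed out of the fit. In the exact permutation test of the 2 groups of 3 on log2(RPKM + 1), the difference was -0.25 (two-sided p = 0.4), where the smallest p these group sizes allow is 0.1. The old mean was 0.515 times the mean of young replicates 2 and 3. Without young replicate 1 the permutation test gave a difference of -0.40 (two-sided p = 0.1), and smaller groups allow no lower p. With young replicate 1 left out and no filter, limma gave a log2 fold change of -0.40 ± 0.05 (SE, adjusted p = 0.0273). This setting was added after the data were seen. In it 3 of the 10 members were called, Bid, Bbc3 and Bcl2l11, where 5.73% of 29109 genes were. Those genes include many below the filter. With the filter, 32.9% of 11919 genes were called without young replicate 1. The difference was negative with and without that library, and its size and call depended on it. Bcl2l11 has a gene length of 8029 bases, and young replicate 1 had 0.450 times the mean RPKM of young replicates 2 and 3. On log2(RPKM + 1), which understates the change of so low a gene, that difference was -0.47. The same difference had a median of -0.48 over tested genes above 8000 bases and was -0.53 in Bcl2, so it is not particular to Bcl2l11. Bcl2l11 lies on chromosome 2 (128126038 to 128162547, plus strand, mm10).

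The other BH3-only genes were Bad and Pmaip1. BAD is a sensor of growth factor signalling, held inactive by phosphorylation. Bad had 35.4, 32.7 and 32.9 RPKM in old replicates 1, 2 and 3, against 34.5, 33.6 and 37.4 RPKM in young replicates 1, 2 and 3. The groups overlapped, and the log2 fold change was -0.06 ± 0.09 (SE, limma adjusted p = 0.952), with a 95% interval from -0.27 to 0.15. Bad lies on chromosome 19 (6941861 to 6951898, mm10) and shares 517 exon bases with Gpr137 on the other strand, a gene at 3.30 to 4.20 RPKM. Pmaip1 encodes NOXA, a p53-induced antagonist of MCL1. It had 2 reads in old replicate 1 and 0 in the other 5 libraries. For independent reads, a count of 0 allows up to 3 reads, or 0.0137 to 0.0175 RPKM by library. Reads here are not independent molecules, as given under processing, so this floor may be too low. No difference of Pmaip1 was detectable at this depth, and this floor covers counting error only.

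Bak1 was higher in every old library, and Bax was not separated. BAK resides on the mitochondrial membrane, while BAX moves there from the cytosol when a cell is damaged. Bak1 was at 17.4, 16.9 and 18.2 RPKM in old replicates 1, 2 and 3, against 12.6, 16.0 and 15.8 RPKM in young replicates 1, 2 and 3. Its log2 fold change was 0.24 ± 0.11 (SE, limma adjusted p = 0.547), and 0.13 ± 0.05 without young replicate 1 (SE, limma adjusted p = 0.0941). Old and young libraries did not overlap, but the gap between the lowest old and the highest young library was small beside the spread of the young group. Bak1 (chromosome 17, 27019810 to 27029009, mm10) shares 357 exon bases with Ggnbp1 on the other strand.

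Bax had 89.8, 100.5 and 89.3 RPKM in old replicates 1, 2 and 3, against 94.9, 79.6 and 88.1 RPKM in young replicates 1, 2 and 3. Young replicate 1 lay inside the old range. The log2 fold change was 0.09 ± 0.11 (SE, limma adjusted p = 0.923), with a 95% interval from -0.17 to 0.35. Bax (chromosome 7, 45461697 to 45466898, mm10) shares 192 exon bases with RP23-218K15.5 on the same strand, a gene at 142 to 177 RPKM, so part of its reads may be split between them.

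None of the survival genes was called, except Mcl1 with library weights. MCL1 is a short-lived protein that must be made continuously, BCL2 is the founder of the family, and Bcl2l1 encodes BCL-XL. Mcl1 had 39.4, 38.0 and 38.0 RPKM in old replicates 1, 2 and 3, against 40.2, 35.6 and 31.8 RPKM in young replicates 1, 2 and 3. Young replicate 1 was the highest of all, and young replicates 2 and 3 lay below the old libraries. The log2 fold change was 0.10 ± 0.11 (SE, limma adjusted p = 0.901), and 0.19 ± 0.06 without young replicate 1 (SE, limma adjusted p = 0.0543).

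Bcl2 had 2.05, 1.83 and 1.85 RPKM in old replicates 1, 2 and 3, against 1.22, 2.26 and 2.15 RPKM in young replicates 1, 2 and 3. Here young replicate 1 was the lowest library and the other young libraries were the highest. Its change of 0.03 ± 0.16 in log2 terms (SE, limma adjusted p = 0.989) turned to -0.14 ± 0.07 without young replicate 1 (SE, limma adjusted p = 0.137). Bcl2 has the longest gene model of the family, 9157 bases on chromosome 1 (106538178 to 106714274, mm10), of which 558 exon bases are shared with D630008O14Rik on the other strand. Bcl2l1 was at 3.52, 3.16 and 3.58 RPKM in old replicates 1, 2 and 3, against 2.52, 3.56 and 3.49 RPKM in young replicates 1, 2 and 3. In log2 terms 0.09 ± 0.13 (SE, limma adjusted p = 0.954) also turned, to -0.04 ± 0.07 without young replicate 1 (SE, limma adjusted p = 0.706). Mcl1 (chromosome 3, 95658788 to 95663176) and Bcl2l1 (chromosome 2, 152780668 to 152831728, both mm10) share no exon bases with other genes of the table.

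**Figure D2:**
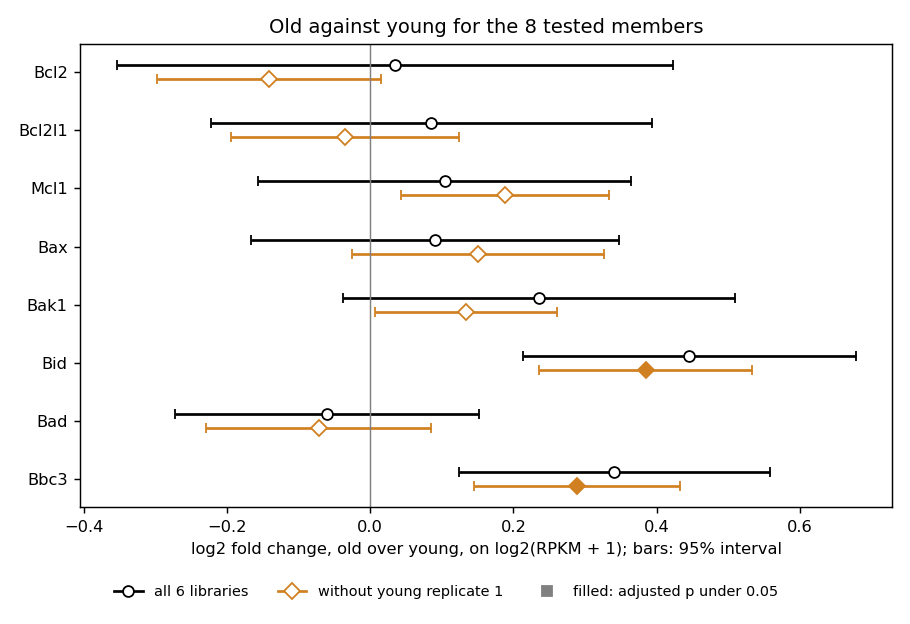
Log2 fold change of old over young on log2(RPKM + 1) for the 8 tested members, with 95% intervals, from all 6 libraries (circles) and without young replicate 1 (diamonds); filled symbols pass an adjusted p under 0.05. Bid and Bbc3 are the filled diamonds, at 0.38 and 0.29, and Bcl2 and Bcl2l1 lie on different sides of 0 in the 2 fits.

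Young replicate 1 was the lowest of the 6 libraries in 6 members, Bcl2, Bcl2l1, Bak1, Bid, Bbc3 and Bcl2l11, and the highest in Mcl1. Its distance from young replicates 2 and 3 ran from -0.53 in Bcl2 to 0.25 in Mcl1 on the log2 scale. Without it, groups did not overlap in 6 of the 8 tested members: Mcl1, Bax, Bak1, Bid and Bbc3 were higher in old and Bcl2 was lower, where 23.8% of genes were higher and 38.7% lower without overlap. After each library's trend on gene length was removed, an alternative chosen after the data were seen, the log2 fold change of Bid was 0.44 ± 0.09 (SE, limma adjusted p = 0.0852) and 0 of 8 members were called, where 1.93% of genes were. With that trend removed and young replicate 1 left out, 2 were called, Bid and Bbc3, where 30.2% of genes were. The part of gene length in the members' differences was not tested further.

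**Figure D3:**
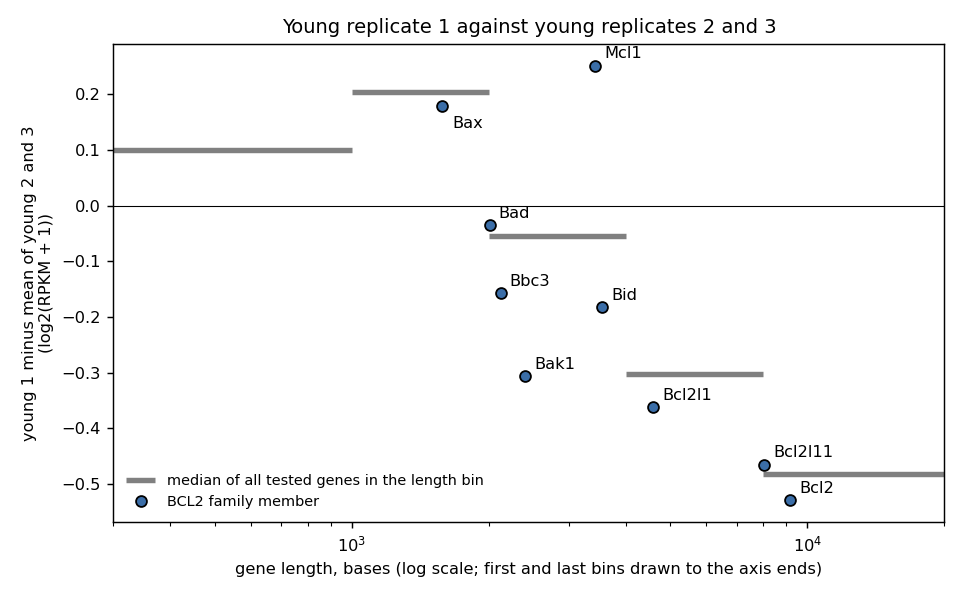
Difference between young replicate 1 and the mean of young replicates 2 and 3, on log2(RPKM + 1), against gene length on a log axis; points are members with reads in young libraries, and grey bars are medians of all tested genes by length. The points run from 0.25 in Mcl1 to -0.53 in Bcl2, and the bars from 0.20 to -0.48.

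Ratios of death-promoting to survival transcripts followed the same library. Such a ratio within a library does not depend on its depth, and since it is a score over members it is given with no test. It can still carry a trend on gene length: Bax has 1576 bases and Bcl2 has 9157. Young replicate 1 differed from young replicates 2 and 3 by a median log2 of 0.20 in genes of 1000 to 2000 bases. That median was -0.48 in genes over 8000 bases. The part of gene length in these ratios was not tested. The ratio of Bax to Bcl2 was 43.7, 55.0 and 48.3 in old replicates 1, 2 and 3, against 77.7, 35.2 and 40.9 in young replicates 1, 2 and 3. Young replicate 1 had the highest and young replicates 2 and 3 the lowest ratios, so the old libraries lay between. The old mean minus the young mean was -2.25 with all libraries and 11.0 without young replicate 1. The same order held for Bax to Bcl2l1, with 25.5, 31.9 and 24.9 in old replicates and 37.7, 22.4 and 25.2 in young replicates, except that old replicates 1 and 3 lay on either side of young replicate 3. Bid to Mcl1, not among the planned ratios, was at 0.158, 0.156 and 0.157 in old replicates 1, 2 and 3. It was at 0.0931, 0.130 and 0.131 in young replicates 1, 2 and 3. Its groups did not overlap, but those of Bid alone did not either, so it is no separate result. Bax to Bak1 and Mcl1 to Bcl2, also computed, overlapped. Bcl2l11 to Mcl1 was 0.0124, 0.0136 and 0.0144 in old replicates, against 0.0113, 0.0283 and 0.0316 in young ones.

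**Figure D4:**
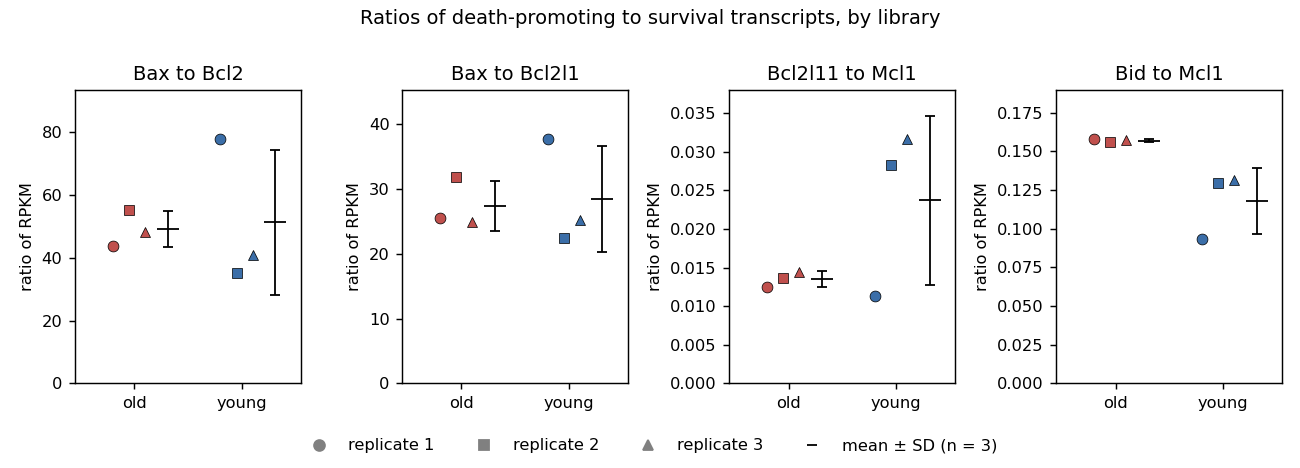
Ratios of RPKM within each library for 4 pairs of members, old left and young right, with a marker shape per replicate and bars for the mean and SD (n = 3 each). In Bax to Bcl2, young replicate 1 is at 77.7, above all old libraries, and young replicates 2 and 3 are below them.

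Bnip3 was the relative of the family that rose. Of 15 listed other relatives 11 were found and 6 were tested, of which 1 was called higher and 0 lower, with a median log2 fold change of 0.07, where 1.47% of all tested genes were called higher and 0.0999% lower. BNIP3 is an atypical BH3 protein of mitochondria that hypoxia induces and that takes part in their removal by autophagy. Bnip3 had 13.1, 12.1 and 13.0 RPKM in old replicates 1, 2 and 3, against 8.17, 7.63 and 7.08 RPKM in young replicates 1, 2 and 3. No library of 1 group reached the other, and the log2 fold change was 0.67 ± 0.09 (SE, limma adjusted p = 0.0224). It was 0.72 ± 0.06 without young replicate 1 (SE, limma adjusted p = 0.000695), but Bnip3 was not called with median-of-ratios scaling (adjusted p = 0.0574) nor when any other 1 library was left out (adjusted p of 0.0854 to 0.282). Bnip3l, its close homologue, was at 10.7 ± 0.320 RPKM in old and 9.70 ± 1.21 RPKM in young (SD, n = 3 each). The survival gene Bcl2l2 was at 4.11 ± 0.0491 RPKM in old and 4.68 ± 1.11 RPKM in young, and Bok, a pore-forming relative, at 8.52 ± 0.950 RPKM in old and 9.94 ± 1.16 RPKM in young (SD, n = 3 each). Without young replicate 1, Bcl2l2 fell by 0.31 on the log2 scale (limma adjusted p = 0.00968), where 19.5% of all genes were called lower. Bmf, Bik, Hrk, Bcl2l14 and Bcl2l15 were below the filter, and Bcl2a1a, Bcl2a1b, Bcl2a1d and Bcl2l10 were not analysed here.

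Fas was the called gene among those that act on BCL2 proteins. Of 22 listed controllers 20 were tested, 1 was called higher and 0 lower, where 1.47% of all tested genes were called higher and 0.0999% lower, and the median log2 fold change was 0.01. FAS is the death receptor upstream of caspase-8, the enzyme that cuts BID. Fas was at 9.64, 10.0 and 11.2 RPKM in old replicates 1, 2 and 3, against 6.56, 5.41 and 5.57 RPKM in young replicates 1, 2 and 3, without overlap. The log2 fold change was 0.72 ± 0.11 (SE, limma adjusted p = 0.0335), and 0.79 ± 0.07 without young replicate 1 (SE, limma adjusted p = 0.000877). Fas was likewise not called with median-of-ratios scaling (adjusted p = 0.0803) nor when any other 1 library was left out (adjusted p of 0.115 to 0.298). The other named controllers did not pass the test: Fadd, the adaptor of the receptor, was at 2.28 ± 0.118 RPKM in old and 2.06 ± 0.0999 RPKM in young, Cflar, which restrains caspase-8, at 2.57 ± 0.0982 RPKM in old and 3.08 ± 0.613 RPKM in young, and the kinase gene Mapk8 at 2.02 ± 0.0958 RPKM in old and 2.32 ± 0.283 RPKM in young (SD, n = 3 each). Leaving out young replicate 1 left 1 controller higher, Fas, and 4 lower, Cflar, Akt1, Huwe1 and Fbxw7, of 20 by limma, where 13.4% of all genes were called higher and 19.5% lower. With the length trend removed as well, 2 were higher and 1 lower, where 30.2% of 11919 genes were called.

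Genes that act after the pore gave no calls in the unweighted fit of all 6 libraries. Of 17 listed genes of the mitochondrial pathway 16 were tested and 0 were called, with 1 at an unadjusted p under 0.05. Over all 12015 tested genes, limma called 1.57%, and 11.2% had an unadjusted p under 0.05. The median log2 fold change was 0.02 over the 16 genes. Among those of smallest p were Htra2, a protease released through the pore, at 8.19 ± 0.284 RPKM in old and 6.27 ± 1.21 RPKM in young, Birc5, a mitotic member of the inhibitor of apoptosis family, at 40.0 ± 1.85 RPKM in old and 61.3 ± 23.3 RPKM in young, and Birc2 of the same family at 5.96 ± 0.215 RPKM in old and 7.04 ± 0.746 RPKM in young (SD, n = 3 each). Without young replicate 1, limma called 4 of the 16 higher, Cycs, Vdac2 and Htra2 among them, and 2 lower (Xiap and Birc5), where 32.9% of all genes were called, 13.4% higher and 19.5% lower.

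Transcription factors that act on family genes gave 0 calls in the unweighted fit of all 6 libraries, among 13 tested of 15 listed. There was 1 at an unadjusted p under 0.05, and the median log2 fold change was 0.18. The shares over all 12015 tested genes were 1.57% called and 11.2% at an unadjusted p under 0.05 by limma. Trp53, which induces Bbc3, Pmaip1 and Bax after DNA damage, was at 9.56, 8.96 and 8.77 RPKM in old replicates 1, 2 and 3, against 8.54, 7.18 and 7.56 RPKM in young replicates 1, 2 and 3. All old libraries were above all young ones, and the log2 fold change was 0.21 ± 0.10 (SE, limma adjusted p = 0.522). Ddit3, a stress factor that can induce Bcl2l11 and Bbc3, was at 198 ± 16.5 RPKM in old and 145 ± 45.7 RPKM in young, Foxo3, an inducer of Bcl2l11 and Bbc3, at 9.34 ± 0.122 RPKM in old and 7.93 ± 1.16 RPKM in young, and E2f1, a cell cycle factor, at 8.39 ± 0.295 RPKM in old and 10.7 ± 1.71 RPKM in young (SD, n = 3 each). Limma called 4 of the 13 higher without young replicate 1, Ddit3, Cebpb, Trp53 and Atf4, and 0 lower, beside 13.4% of all genes higher and 19.5% lower. With the length trend removed as well, 6 were higher and 1 lower, where 30.2% of 11919 genes were called. Atf4 ran the other way with all libraries, at 228 ± 11.7 RPKM in old and 251 ± 110 RPKM in young (SD, n = 3 each), with young replicate 1 at 378 RPKM.

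**Figure D5:**
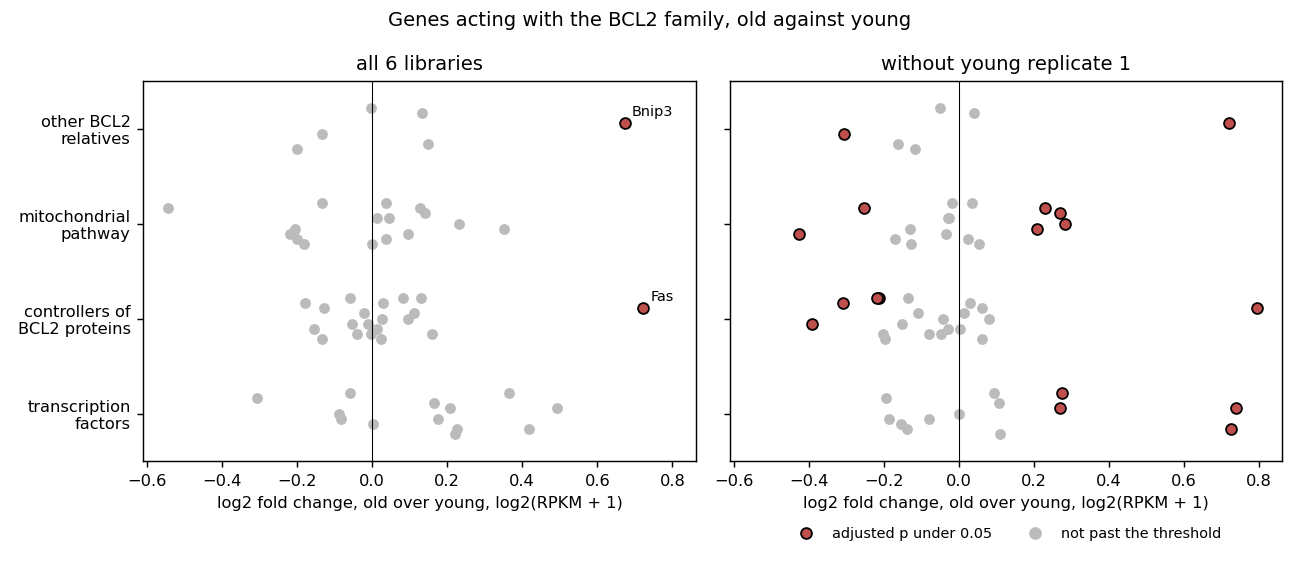
Log2 fold change of old over young on log2(RPKM + 1) for the tested genes of 4 lists, 1 point per gene, with all 6 libraries at left and without young replicate 1 at right; red points pass an adjusted p under 0.05 and vertical spread within a list carries no value. Bnip3 and Fas are the red points at left, at 0.67 and 0.72.

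Genes whose profile over the 6 libraries was most like that of Bid, the member of smallest p, were Tkfc, Ahnak2 and Farsb, with Pearson's r of 0.998, 0.997 and 0.996 on log2(RPKM + 1). The points share libraries, and the highest values among 12015 genes are large by selection, so this is a description. Tkfc had 9.92, 9.87 and 9.81 RPKM in old replicates 1, 2 and 3, against 7.18, 8.25 and 7.71 RPKM in young replicates 1, 2 and 3.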

How the data were processed

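RNA was sequenced from ultraviolet-killed osteoblasts, 3 libraries of old and 3 of young mice. Per the submitters' processing notes, fastp, STAR, HTSeq and edgeR were used on mm10; their versions and settings, the annotation and any use of strand are not stated in those notes. The authors' table holds RPKM values, deposited with a gene length. Multiplied by length, 100.0% of the deposited RPKM values of each library came out as whole reads (tolerance 0.01). Even read numbers made up 77.5 to 79.3% of genes at 1 to 5 reads, so reads are not independent molecules. The labels do not say that replicates came from separate animals or cultures, so the p-values rest on a spread among libraries that could be technical.

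Old was compared with young by limma 3.58.1 (R 4.3.3) on log2(RPKM + 1). The model held the group term, with a variance trend, for genes of at least 1 RPKM in at least 3 libraries of the fit, two-sided tests and Benjamini-Hochberg adjustment over all tested genes. Fold changes are on that scale, which understates the change of low genes. Code was tested on simulated data. Alternatives were pseudocounts of 0.1 and 0.5, other filters, scalings and weights, voom on recovered reads, a replicate block and leaving out each library; removal of the length trend (loess, span 0.5) and its combinations were added after the data were seen. The rule named all 10 members, called genes and up to 4 genes of smallest p per list, and the 3 genes most correlated with the member of smallest p. A gene that this rule names is not reported here. The members and lists were chosen with earlier results of these data known.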

Additional observations from a re-analysis of the deposited data

How the results depend on the processing

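The calls depended on young replicate 1, as the report gives member by member. Over 17 or 18 alternatives per member, Bid and Bbc3 were higher in old in every one and called by limma in 4 each: with library weights, and in the 3 settings without young replicate 1. Bak1 and Mcl1 were called with library weights alone, and Bax and Bad in none. The library weights ranged from 0.0425 for young replicate 1 to 4.12 for old replicate 1. The number of members called was 0 with all libraries unweighted and 4 with library weights. Without young replicate 1 it was 2 with the length trend removed and 3 with no filter. On leaving out 1 library it was 0 to 2. Bcl2 reversed with library weights (-0.092), without old replicate 1 (-0.00040), without young replicate 1 with or without the filter (-0.14), and without it and the length trend (-0.017). Bcl2l1 reversed with library weights (-0.0050), without young replicate 1 with or without the filter (-0.035), and without it and the length trend (-0.0025). Leaving out 1 library at a time, Bcl2 ran from -0.14 to 0.14 and Bcl2l1 from -0.035 to 0.15. The cause of these reversals was not tested.

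Over all genes 189 were called, against 107 at a mean of at least 5 RPKM, 316 at an adjusted p under 0.1, 5076 with library weights, 82 with the replicate block, 3594 without young replicate 1 and the length trend, 1667 without it and the filter, and 33 to 3920 on leaving out 1 library. With 1 old library left out, 137 of the 189 were still tested, since the filter then asks for 3 of 5 libraries. Of the pathway genes 2 were called, against 1 with no filter, 0 with median-of-ratios scaling, quantile normalization or the replicate block, 21 with library weights, 18 without young replicate 1 and the length trend, 8 without it and the filter, and 0 to 17 on leaving out 1 library. Bnip3 and Fas thus keep no call when any 1 library other than young replicate 1 is left out. Whether replicate numbers pair libraries was not settled. Same-numbered deviations from group means correlated at -0.03, -0.44 and 0.33, and differently numbered ones at -0.42 to 0.43. Deviations within a group sum to 0, so these correlations depend on one another. The replicate block called 0 members, as did the fit without it. The difference of Bcl2l11 stayed between -0.40 and -0.17 without any 1 library, and those of Bax to Bcl2, Bax to Bcl2l1 and Bcl2l11 to Mcl1 between -10.3 and 11.0, -4.02 and 3.62, and -0.0165 and -0.0063. At this depth no level of Pmaip1 could be compared.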
